A study of Homo sapiens with 10 samples.

Results

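The neutrophil-attracting chemokines and partner cytokines described here were 10 genes, CXCL1, CXCL2, CXCL3, CXCL5, CXCL8, IL6, IL1A, IL1B, IL24 and LIF, out of 18144 genes listed. They were taken by symbol and chosen by their CPM (counts per 1000000 reads), namely the peak of CXCL8 and CXCL1 in untreated spheroids on day 3. Every value from the untreated day 3 library therefore repeats the choice and is given as a description with no test. A peak is a height above the other untreated days, so the day 0 and day 7 values of CXCL8 and CXCL1 entered the choice too. Their ratios to those libraries are likewise descriptions. The libraries came from PC-3 cells, a human prostate cancer line that the study classes as castration-resistant with neuroendocrine features, grown as 3D spheroids and labelled WT. Untreated spheroids (CTRL) were sampled on days 0, 3 and 7. Spheroids given topotecan, an inhibitor of topoisomerase I, as a bolus at the start (conventional, CONV-TOPO, CON) were sampled on days 3 and 7, as were spheroids given the same weekly total as daily fractions (extended exposure or metronomic, EE-TOPO, EE). In all groups part of the medium was exchanged during the week. Each treatment and day was represented by 1 library, so 7 libraries were used. The other samples, 3 taken on day 1, were not analysed here. RNA was taken from whole spheroids, in which fewer producing cells and less RNA per cell cannot be told apart.

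CXCL1, CXCL2, CXCL3, CXCL5 and CXCL8 are small secreted chemokines that carry a glutamate-leucine-arginine motif and act on the receptor CXCR2, through which they draw neutrophils and can feed back on tumor cells. IL1A and IL1B are the interleukin-1 cytokines, which switch on such chemokines through NF-kB, a family of transcription factors released from its inhibitors by inflammatory signals. IL6 and LIF signal through receptors that share the subunit IL6ST and can activate STAT3, and IL24 is a member of the IL10 family. The state of STAT3 in these PC-3 cells was not analysed here. PC-3 cells are known for secreting CXCL8, and chemokines of this kind are part of the secretory response of cells with damaged DNA.

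The 5 chemokine genes lie together on chromosome 4 (hg38), with CXCL8 at chr4:73740569-73743716, CXCL1 at chr4:73869393-73871308, CXCL5 at chr4:73995642-73998677, CXCL3 at chr4:74036591-74038689 and CXCL2 at chr4:74097040-74099195. IL1A at chr2:112773926-112784493 and IL1B at chr2:112829756-112836779 are neighbors, and IL6 lies at chr7:22727200-22731998, IL24 at chr1:206897443-206904139 and LIF at chr22:30240453-30246759. The bases just upstream of the starts are shown for 6 genes because they hold a stretch with the form of an NF-kB motif, in capitals, which the chemokine genes share and of which IL6 has a form of its own. The sequences are those of RefSeq (GRCh38.p14), 130 bases ending at the base before the start site and read along the gene's strand, and they span chr4:73869263-73869392 (plus strand), chr4:74099196-74099325 (minus), chr4:74038690-74038819 (minus), chr4:73998678-73998807 (minus), chr4:73740439-73740568 (plus) and chr7:22727070-22727199 (plus), in the order printed.
CXCL1: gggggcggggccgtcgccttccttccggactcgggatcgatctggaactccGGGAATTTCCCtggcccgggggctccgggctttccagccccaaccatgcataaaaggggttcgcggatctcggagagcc
CXCL2: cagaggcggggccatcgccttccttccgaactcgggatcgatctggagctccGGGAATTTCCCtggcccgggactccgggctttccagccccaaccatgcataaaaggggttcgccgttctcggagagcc
CXCL3: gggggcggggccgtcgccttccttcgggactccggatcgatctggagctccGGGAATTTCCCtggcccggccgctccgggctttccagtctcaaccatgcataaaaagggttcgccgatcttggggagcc
CXCL5: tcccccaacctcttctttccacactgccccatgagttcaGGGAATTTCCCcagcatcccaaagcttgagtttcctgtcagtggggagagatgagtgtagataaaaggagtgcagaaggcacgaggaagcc
CXCL8: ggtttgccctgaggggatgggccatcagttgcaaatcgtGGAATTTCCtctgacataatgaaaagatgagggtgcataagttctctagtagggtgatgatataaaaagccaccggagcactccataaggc
IL6: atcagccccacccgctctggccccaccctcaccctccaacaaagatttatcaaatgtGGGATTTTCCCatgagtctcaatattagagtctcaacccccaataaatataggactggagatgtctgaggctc

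The longest run that the printed windows of CXCL1, CXCL2, CXCL3 and CXCL5 share was GGGAATTTCCC, 11 bases. Searched on both strands in the 250 bases upstream of all starts, it was present in 0.0769% of 35116 windows. The run shared with CXCL8 as well was GGAATTTCC, which lies inside the first, and 0.413% of windows held it. Both runs were taken from these genes, so that the genes hold them is no finding. The stretch of IL6 nearest to the first run, with 1 mismatch, was GGGATTTTCCC, found in 0.0342% of windows. The AP-1 motif TGACTCA was present in CXCL8 and IL1A, against 4.20% of windows. Windows were matched for 9 of the 10 genes, and LIF was not among them. In CXCL1, CXCL2 and CXCL3 the run began 78 or 79 bases before the start, and in CXCL5 and CXCL8 it began 91 bases before it. A match of letters is a description of these windows and not a measured binding site.

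A feature at the other end of these transcripts is the pentamer ATTTA in the 3′ UTR, the core of AU-rich elements that proteins such as ZFP36 bind in short-lived cytokine mRNAs. The 10 genes held from 3 (IL24) to 11 (CXCL5) copies. Per kb of 3′ UTR the density was 14.1 in IL6, 14.0 in CXCL2, 10.4 in CXCL3, 9.84 in IL1B, 7.77 in CXCL1, 7.19 in CXCL8, 5.51 in CXCL5, 4.38 in IL1A, 2.78 in IL24 and 2.19 in LIF. The median over 11994 genes with at least 1 CPM on average was 1.79 per kb. IL6 and CXCL2 stood above 99.7% of those genes, and LIF stood above 57.4%. The longer TTATTTATT was present in 6 of the 10 genes, compared with 9.97% of those 11994 genes.

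**Figure D1:**
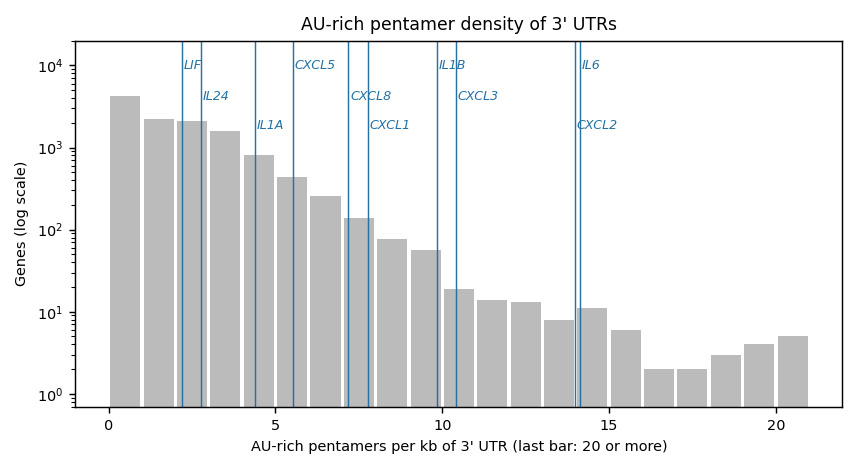
AU-rich pentamers per kb of 3′ UTR (x axis) against the number of genes (y axis, log scale) for 11994 genes with at least 1 CPM on average, with a vertical line for each of the 10 genes. LIF and IL24 sit near the bulk of genes, and IL6 and CXCL2 sit in the thin right part, at 14.1 and 14.0 per kb.

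The CPM were deposited by the authors, and the steps between low values place the depth at 15.0 M to 22.5 M reads per library (M, 1000000). A gene with 0 reads could still be present at a low level, with an exact 95% upper limit of 0.164 CPM in EE day 3 and 0.245 CPM in EE day 7. A level of 3 reads was 0.133 to 0.200 CPM. The cytokeratins, EPCAM and VIM of PC-3 cells were at 149 CPM or more in every library, whereas of the leukocyte markers PTPRC, CD14 and CSF1R did not exceed 1.06 CPM, ITGAM did not exceed 1.86 CPM and LYZ was at 2.73 to 6.93 CPM. The stromal markers COL1A2, DCN and VWF did not exceed 0.601 CPM. The macrophage marker CD68 (65.7 to 128 CPM), COL1A1 and PECAM1 were present in all libraries. Of the luminal prostate genes, ACP3 did not exceed 2.40 CPM, TMPRSS2 was at 71.4 to 149 CPM, and KLK3 was not analysed here. On day 7 the treated libraries differed widely from untreated ones, and scaling to the trimmed mean of M-values (TMM) raised their log2 ratios to CTRL day 7 by 0.25 in CON and 0.22 in EE. Few 75-base stretches of the members' transcripts recur in other genes, with at most 2.50% of them, in CXCL2, shared mainly with CXCL3.

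The untreated course on days 0, 3 and 7 was 170.3, 1600.3 and 174 CPM for CXCL8. For CXCL1 it was 166, 380.4 and 193 CPM. Day 3 was thus the high point of both genes, and their levels on days 0 and 7 were close. The day 3 to day 0 ratio was 9.39 for CXCL8 (95% interval 9.07 to 9.74) and 2.29 for CXCL1 (2.19 to 2.38). All intervals of single-library ratios are exact conditional binomial intervals for counting error alone, and there is no replicate spread behind them. CXCL8 was 1195th among all genes by CPM on day 0 and 33rd on day 3, when it took 0.160% of all reads. Per kb of transcript, CXCL1 was above CXCL8 on day 0 (142 against 104 CPM per kb) and below it on day 3 (324 against 975 CPM per kb).

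The 3 smaller chemokines followed the same course. CXCL2 stood at 6.06, 20.9 and 7.19 CPM on days 0, 3 and 7, CXCL3 at 3.06, 19.6 and 3.83 CPM, and CXCL5 at 7.46, 41.0 and 9.51 CPM. Added together, the 5 chemokines made 353, 2062 and 387 CPM. CXCL8 contributed 77.6% of that sum in the untreated day 3 library and 44.9% to 63.6% in the other 6 libraries. CXCL6, a further CXCR2 ligand outside the 10 genes, stood at 24.3, 90.8 and 31.3 CPM.

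**Figure D2:**
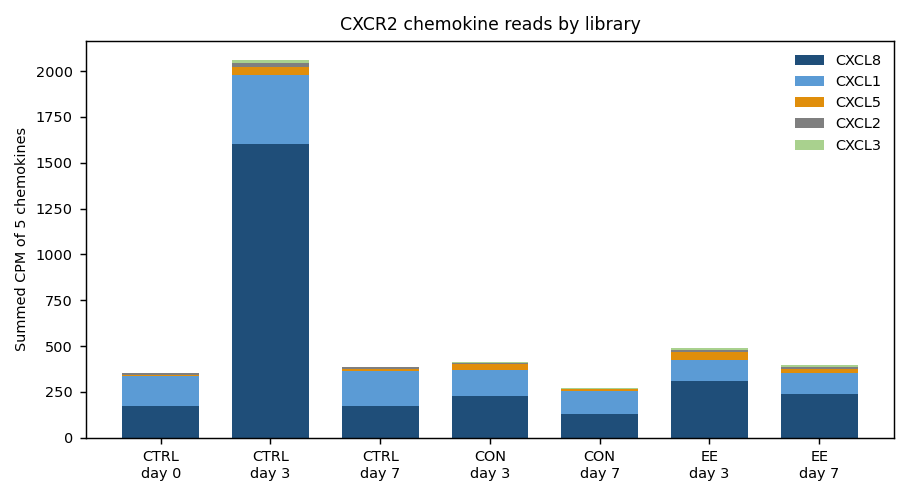
Summed CPM of the 5 CXCR2 chemokines (y axis, from 0) in each of the 7 libraries (x axis), with the part of each gene in its own color. The untreated day 3 library reached 2062 CPM, mostly CXCL8, and the other libraries lay between 270 and 490 CPM.

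Among the cytokines, IL24 and IL6 had the widest untreated range as a fold, and LIF had the widest in CPM. IL24 stood at 0.791, 60.2 and 1.66 CPM on days 0, 3 and 7, and IL6 at 1.65, 29.2 and 2.94 CPM. IL1A stayed low throughout, at 0.351, 1.27 and 0.210 CPM, which is 7, 24 and 4 reads. IL1B did not share the peak, with 36.7, 33.5 and 33.3 CPM. LIF stood at 99.7, 200.0 and 204 CPM, so that it was as high on day 7 as on day 3. Of the 9 members with a mean of at least 10 CPM, 8 were at least 2-fold higher on day 3 than on day 0, compared with 1.81% of 9943 genes, and under TMM scaling LIF fell below 2-fold. Several passed that filter through their day 3 value alone, and nothing is read from the count. The NF-kB targets TRAF1 (0.601, 15.9 and 1.68 CPM), TNFAIP3 (21.2, 108 and 33.3 CPM) and BIRC3 (21.4, 81.8 and 32.3 CPM) also stood highest on day 3 in untreated spheroids. They rose the most from day 0 to day 3 in a list of 14 such targets. NFKBIA of that list rose less (145, 196 and 148 CPM), and NFKBIZ stood highest on day 7 (93.4, 94.4 and 184 CPM).

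**Figure D3:**
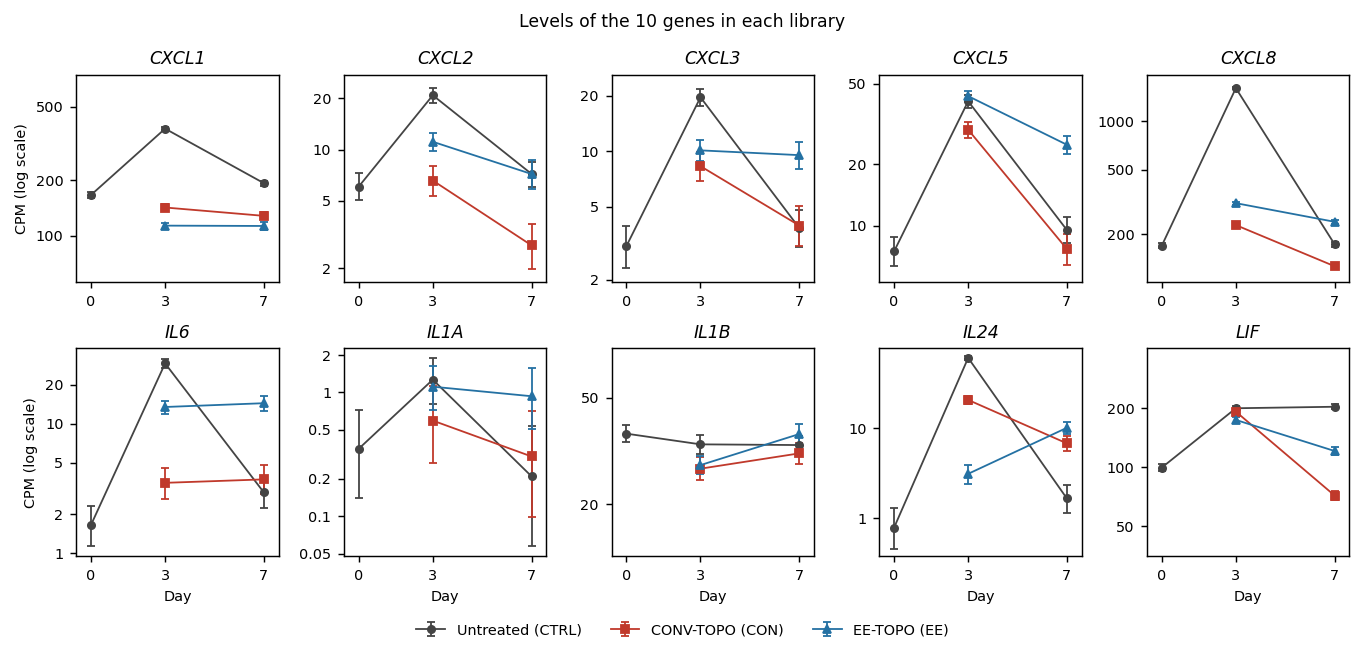
CPM (y axes, log scale, each gene with its own range) against day (x axes) for the 10 genes in untreated (circles), CONV-TOPO (squares) and EE-TOPO (triangles) spheroids, 1 library a point, with exact 95% Poisson intervals of the reads as bars. CXCL8 and IL6 rise and fall sharply in the untreated line, IL1B is nearly level, and the EE points of IL6 lie above the CON points on both days.

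On day 3, CXCL1, CXCL8, IL6 and IL24 were at least 2-fold lower in both treated libraries than in the untreated one. CXCL8 stood at 228 CPM in CON and 312 CPM in EE, which was 0.143 (0.138 to 0.148) and 0.195 (0.190 to 0.200) of the untreated level that day. IL24 stood at 20.6 CPM in CON and 3.12 CPM in EE, which was 0.342 (0.301 to 0.388) and 0.0518 (0.0401 to 0.0659) of it. At least 2-fold lower than untreated were 6 of 9 members in CON (CXCL1, CXCL2, CXCL3, CXCL8, IL6 and IL24), against 0.237% of 10131 genes. In EE they were 4 of 9 (CXCL1, CXCL8, IL6 and IL24), against 0.403% of 10170 genes. Under TMM CXCL3 joined them in EE, and all genes split into 38 higher and 31 lower in CON, in place of 46 and 24, and 103 and 50 in EE, in place of 148 and 41. CXCL5 in EE was at the untreated level (43.5 against 41.0 CPM, ratio 1.06, 0.964 to 1.17), and IL1A in EE was near it (25 against 24 reads, ratio 0.877, 0.481 to 1.60). LIF was close to it in CON (192 against 200.0 CPM). These ratios all rest on the untreated day 3 library that the choice of genes used, and nothing is read from the counts.

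Set against untreated day 0 instead, the treated day 3 libraries were not uniformly low. For CXCL1 the day 0 value entered the choice as well, and its ratios are a description. CXCL5 was 3.98 times (3.30 to 4.82) the day 0 level in CON and 5.82 times (4.90 to 6.97) in EE. IL6 was 2.11 times (1.34 to 3.36) that level in CON and 8.13 times (5.66 to 12.0) in EE. CXCL1 was below it in both, at 0.855 (0.809 to 0.902) in CON and 0.682 (0.647 to 0.718) in EE. CXCL5 and CXCL1 therefore moved to opposite sides of day 0 in the same libraries, under TMM scaling as well. LIF was 1.93 times and 1.75 times the day 0 level, and IL24 was 26.0 times in CON and 3.94 times in EE.

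The comparison of EE with CON asks whether the schedule mattered, and it uses no untreated library. The total dose was the same only over the whole week. On day 3 the EE spheroids had received part of it and the CON spheroids all of it, so that on that day the schedule and the dose received cannot be told apart. On day 7 the time since the last dose differed between the regimens. Medium exchange may also have left unlike drug levels, which are not given. IL6, CXCL8 and CXCL5 were higher in EE than in CON on both days and passed the test. IL24 differed in opposite directions on the 2 days, and CXCL1 was the gene that was lower in EE on both days, without passing the test. The model was limma on log2(TMM-scaled CPM + 1) with regimen and day as terms, fitted to the 4 treated libraries. Its error is the variation of the regimen difference between days, with 1 residual degree of freedom per gene and 14.3 prior degrees of freedom borrowed from all genes, and not the spread between replicate spheroids.

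IL6 stood at 3.49 CPM in CON and 13.4 CPM in EE on day 3, and at 3.71 CPM in CON and 14.4 CPM in EE on day 7. Both EE libraries were above both CON libraries, and the ratio was nearly the same on the 2 days, 3.85 (2.87 to 5.26) and 3.88 (2.91 to 5.24). The log2 difference was 1.68 (SE 0.22, limma adjusted p = 0.00220), the highest of the 14547 genes in this fit. On the other strand, STEAP1B (at most 0.311 CPM) and the lncRNA IL6-AS1 overlap IL6. IL6-AS1 stood at 0.132 (CON) and 0.400 CPM (EE) on day 3 and at 0.304 and 0.599 CPM on day 7, higher in EE on both days. These are few reads, the CON value of day 3 is below the level of 3 reads (0.197 CPM), and nothing is read from their order. The library kit does not mark strand, so that reads from the shared bases cannot be told apart. LIF-AS1, which overlaps LIF, did not exceed 0.182 CPM, and the other lncRNAs annotated across LIF and CXCL5 were not analysed here.

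CXCL8, the leading chemokine, stood at 228 and 312 CPM in CON and EE on day 3, and at 127 and 239 CPM on day 7. The ratio was 1.37 (1.31 to 1.42) on day 3 and 1.88 (1.78 to 1.99) on day 7, so that EE was above CON on each day. The log2 difference was 0.65 (SE 0.12, limma adjusted p = 0.0220), made of 0.42 on day 3 and 0.88 on day 7. CXCL5 stood at 29.7 and 43.5 CPM on day 3 and at 7.66 and 25.0 CPM on day 7. Its ratio was 1.46 (1.31 to 1.64) on day 3 and 3.27 (2.66 to 4.03) on day 7. The log2 difference was 1.04 (SE 0.21, limma adjusted p = 0.0385), made of 0.51 and 1.57. With median-of-ratios scaling the adjusted p of CXCL5 was 0.0626.

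The other chemokines did not pass. CXCL2 stood at 6.58 (CON) and 11.1 CPM (EE) on day 3 and at 2.73 and 7.19 CPM on day 7, a log2 difference of 0.89 (SE 0.23, adjusted p = 0.130). CXCL3 stood at 8.29 and 10.1 CPM on day 3 and at 3.95 and 9.52 CPM on day 7, a log2 difference of 0.66 (SE 0.24, adjusted p = 0.344). CXCL1 went the other way, with 142 and 113 CPM on day 3 and 128 and 113 CPM on day 7, a log2 difference of -0.28 (SE 0.11, adjusted p = 0.371). CXCL8 thus made up more of the chemokine sum in EE (63.6% and 60.7%) than in CON (55.0% and 47.1%), and CXCL1 less (23.2% and 28.7% against 34.3% and 47.5%).

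For IL24 and LIF, EE minus CON had opposite signs on the 2 days, and the change between days was not tested. IL24 stood at 20.6 CPM in CON and 3.12 CPM in EE on day 3, a ratio of 0.152 (0.115 to 0.197). On day 7 it stood at 6.78 and 10.1 CPM, a ratio of 1.49 (1.16 to 1.91). The 2 CON values enclosed the EE value of day 7, and the fit gave a log2 difference of -0.95 (SE 0.42, adjusted p = 0.475). An exon of FCMR overlaps the 3′ end of IL24 on the other strand, where reads cannot be told apart either. FCMR stood at 3.67, 15.1 and 3.28 CPM in untreated spheroids on days 0, 3 and 7, at 7.66 and 7.56 CPM in CON, and at 4.94 and 10.2 CPM in EE on days 3 and 7. LIF stood at 192 (CON) and 174 CPM (EE) on day 3 and at 71.8 and 121 CPM on day 7, with a log2 difference of 0.28 (SE 0.15, adjusted p = 0.595).

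The interleukin-1 genes did not pass. IL1B stood at 27.2 and 28.0 CPM on day 3 and at 31.0 and 36.6 CPM on day 7, a log2 difference of 0.11 (SE 0.15, adjusted p = 0.873). IL1A stood at 0.592 and 1.11 CPM on day 3 and at 0.304 and 0.932 CPM on day 7. These are 5 to 25 reads. Its ratio was 1.88 (0.848 to 4.57) on day 3 and 3.07 (1.04 to 10.9) on day 7, when 14 reads in EE stood against 5 in CON. The log2 difference of IL1A was 0.49 (SE 0.27, adjusted p = 0.601), and 1.07 (SE 0.64) with a pseudocount of 0.1 CPM in place of 1 CPM.

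Of the 10 genes, all of which passed the filter of at least 0.528 CPM in 2 of the 4 libraries, 3 were called higher and 0 lower, against 0.296% of genes called higher and 0.144% called lower. At an unadjusted p under 0.05, 5 were higher and 2 lower, against 5.05% and 4.85% of all genes. The median log2 difference of the 10 was 0.57, and that of all genes was -0.01. On both days 7 of the 10 were higher in EE, compared with 26.5% of all genes. When the 2 untreated libraries of days 3 and 7 were added to the fit, the differences were the same but the SE of IL6 rose to 0.81 and that of CXCL8 to 0.72, the limma adjusted p of each of the 10 genes was 1.00, and 0 genes in all were called (133 at an unadjusted p under 0.05). Of the leukocyte markers 3 were tested between EE and CON and 0 were called. ITGAM had 22 (CON) and 40 reads (EE) on day 3 and 2 and 28 reads on day 7, a log2 difference of 0.80 (adjusted p = 0.378), and CD14 had 1 and 16 reads on day 7. LYZ went the other way, with a log2 difference of -0.59 (adjusted p = 0.505). Their part in the differences of the 10 genes was not tested.

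**Figure D4:**
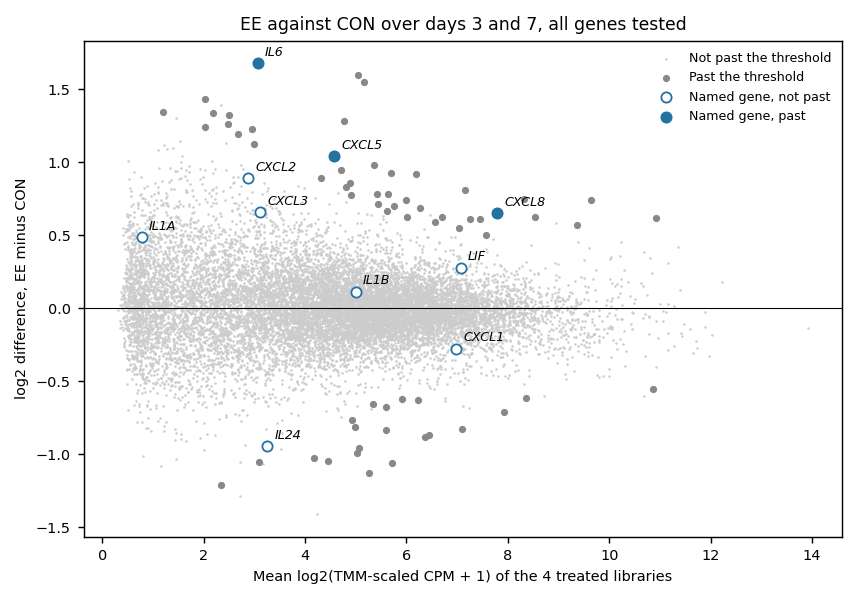
Log2 difference of EE minus CON (y axis) against the mean log2(TMM-scaled CPM + 1) of the 4 treated libraries (x axis) for 14547 genes, with the 10 named genes as blue circles, filled where the adjusted p was under 0.05. IL6 lies at the top at 1.68, CXCL5 and CXCL8 are the other filled circles, and IL24 and CXCL1 lie below 0.

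**Figure D5:**
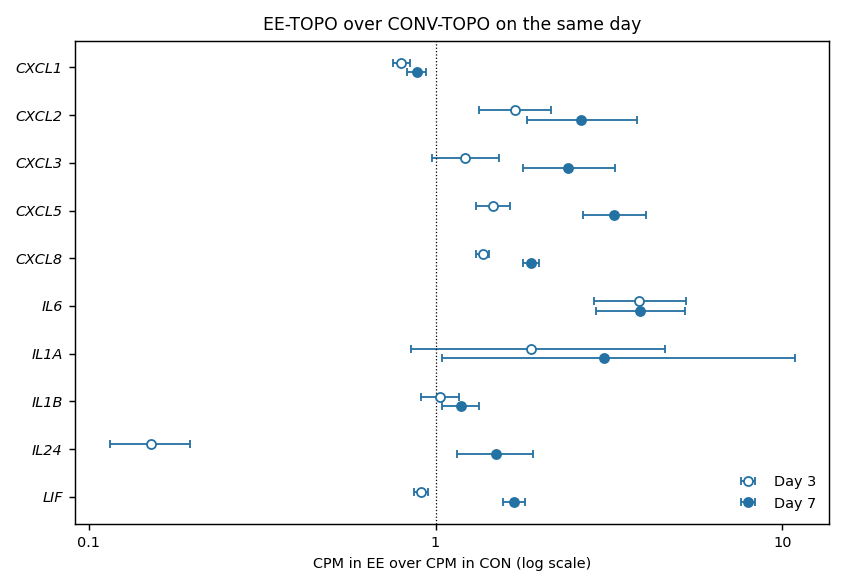
CPM in EE divided by CPM in CON (x axis, log scale) for each of the 10 genes on day 3 (open circles) and day 7 (filled circles), with exact 95% conditional binomial intervals for counting error as bars. IL6 lies near 3.9 on both days, CXCL1 lies below 1 on both, and IL24 moves from 0.152 to 1.49.

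From day 3 to day 7 in treated spheroids, CXCL5, LIF and CXCL8 fell and IL1B rose. CXCL5 fell by 1.04 on the log2 scale (SE 0.21, limma adjusted p = 0.000642), from 29.7 to 7.66 CPM in CON and from 43.5 to 25.0 CPM in EE. Its log2 difference was -1.57 in CON and -0.50 in EE. LIF fell by 0.69 (SE 0.15, adjusted p = 0.00141), and the CON library of day 7, at 71.8 CPM, was its lowest of all 7. Its log2 difference was -1.13 in CON and -0.25 in EE. CXCL8 fell by 0.33 (SE 0.12, adjusted p = 0.0237), with -0.56 in CON and -0.11 in EE. For these 3 genes the fall was thus larger in CON, and whether the regimens differed in it was not tested. IL1B rose by 0.55 (SE 0.15, adjusted p = 0.00489), but on library totals, without TMM, by 0.28 (adjusted p = 0.113). On library totals, genes no longer on the genome than the longest member (10568 bases) had a median log2 ratio of 0.19 in CON and 0.31 in EE. For longer genes it was -0.43 and -0.45. The rise of IL1B was thus near that of other short genes, and a link to gene length was not tested. CXCL2 did not pass, with a log2 difference of -0.56 (adjusted p = 0.0528), and passed on library totals (adjusted p = 0.00662). The other 5 did not pass, and IL6 had a log2 difference of 0.32 (adjusted p = 0.226). The fit called 26.3% of all genes higher and 28.8% lower, so 1 and 3 of 10 are near the background. On library totals the split was 2442 genes higher and 6134 lower, in place of 3823 and 4186, and with the untreated libraries added 0 genes were called (1466 at an unadjusted p under 0.05).

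On day 7 the treated libraries were also set against untreated spheroids of that day, and the ratios of both regimens share that untreated library. For CXCL8 and CXCL1 its values entered the choice, and their ratios are a description. IL6, CXCL5, CXCL3, CXCL8 and IL1A were above untreated in EE, with intervals that leave out 1. In CON none of these 5 had an interval wholly above 1 on library totals, but under TMM scaling IL6 did (ratio 1.50, 1.03 to 2.20). Short genes in general were above untreated. Genes of up to 10568 bases had a median log2 ratio to CTRL day 7 of 0.26 in CON and 0.28 in EE on library totals. For longer genes it was -0.41 and -0.39. The ratios given here were not adjusted for gene length, and its part in them was not tested. IL6 stood at 2.94 CPM untreated, and its ratio was 4.89 (3.63 to 6.68) in EE and 1.26 (0.863 to 1.85) in CON. CXCL5 had ratios of 2.63 (2.20 to 3.16) in EE and 0.806 (0.637 to 1.02) in CON, CXCL3 of 2.48 (1.86 to 3.34) and 1.03 (0.726 to 1.46), and CXCL8 of 1.38 (1.31 to 1.44) and 0.732 (0.692 to 0.773). IL1A had 4 reads untreated, 14 in EE and 5 in CON, and its ratios were 4.43 (1.39 to 18.5) and 1.45 (0.311 to 7.29). IL1B had a ratio of 1.10 (0.979 to 1.23) in EE, and of 1.28 (1.14 to 1.44) under TMM. IL24 was above untreated in both, at 6.08 (4.09 to 9.11) in EE and 4.08 (2.71 to 6.20) in CON. CXCL1 was below it in both, at 0.586 (0.553 to 0.621) and 0.665 (0.630 to 0.702), and so was LIF, at 0.595 (0.562 to 0.629) and 0.353 (0.330 to 0.377). CXCL2 was near untreated in EE (ratio 0.999, 0.769 to 1.29, and 1.17 under TMM) and was at 0.380 (0.265 to 0.536) in CON.

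The receptors for these ligands were in part present. IL6ST, the shared subunit for IL6 and LIF, stood at 56.4 to 177 CPM, LIFR at 16.5 to 64.3 CPM and IL6R at 9.30 to 34.9 CPM, whereas IL1R1 did not exceed 5.47 CPM. CXCR1 and CXCR2 were not analysed here. Of 12 receptor genes 9 were tested, and limma called 0 between EE and CON (1 higher at an unadjusted p under 0.05). From day 3 to day 7 in treated spheroids 5 of the 9 were called lower, namely IL1R1, IL1RAP, IL6R, IL6ST and LIFR, the last by 1.56 on the log2 scale. The log2 difference of IL1R1, a gene at a few CPM, was -0.12 in CON and -1.67 in EE, so most of its fall was in EE. Of all genes 28.8% were called lower. Genes longer than 10568 bases had a median log2 ratio of -0.43 in CON and -0.45 in EE on library totals. The part of gene length in the fall of the receptors was not tested.

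Inhibitors and processing genes comprised IL1RN, the interleukin-1 receptor antagonist, CASP1, which cleaves pro-interleukin-1 beta, and the mRNA-decay proteins ZFP36, ZFP36L1, ZFP36L2 and ZC3H12A. All 11 were tested, and 0 were called between EE and CON (1 higher at an unadjusted p under 0.05). ZFP36L2 had a log2 difference of 0.49 (adjusted p = 0.0834). IL1RN stood at 22.4 (CON) and 17.4 CPM (EE) on day 3 and at 16.7 and 31.3 CPM on day 7. Of 22 related cytokines 14 were tested and 0 were called (7 higher and 0 lower at an unadjusted p under 0.05, against 5.05% and 4.85% of all genes). CSF2, the granulocyte-macrophage factor, had a log2 difference of 0.95 (adjusted p = 0.120), with 2.63 and 5.16 CPM on day 3 and 3.04 and 8.05 CPM on day 7. Of the 4 other CXCR2 ligands 2 were tested and 0 were called (1 higher at an unadjusted p under 0.05), and CXCL6 had a log2 difference of 0.51 (adjusted p = 0.192).

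Of 14 NF-kB feedback targets, limma called 2 higher and 1 lower in EE than in CON, against 0.296% and 0.144% of all genes. At an unadjusted limma p under 0.05, 5 were higher and 1 lower, against 5.05% and 4.85%. The median log2 difference of the list was 0.11. BIRC3, an inhibitor of apoptosis, was higher by 0.78 (SE 0.13, limma adjusted p = 0.0145), with 60.6 (CON) and 114 CPM (EE) on day 3 and 21.5 and 35.7 CPM on day 7. SOD2, the mitochondrial superoxide dismutase, was higher by 0.61 (SE 0.10, adjusted p = 0.0145). NFKBIZ, a nuclear IkB protein that acts as a co-activator of IL6, was lower, at -1.13 (SE 0.14, adjusted p = 0.00220), with 120.3 and 48.8 CPM on day 3 and 24.6 and 12.5 CPM on day 7. NFKBIZ and IL6 thus stood in opposite order between the regimens on both days. TNFAIP3, the A20 brake on NF-kB, had a log2 difference of 0.53 (adjusted p = 0.119). Of 10 hypoxia genes limma called 0 (0 higher and 4 lower at an unadjusted p under 0.05, against 5.05% and 4.85% of all genes).

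The 8 genes whose log2(CPM + 1) over the 7 libraries was most like the mean of CXCL8 and CXCL1, among 9979 genes with at least 10 CPM on average, were PPP6C, HBEGF, SNW1, PHLDA1, PBDC1, DNAJC9, FANCG and POLR3C, with Pearson's r from 0.941 to 0.970. HBEGF, a ligand of the EGF receptor, stood at 55.6, 95.2 and 55.1 CPM in untreated spheroids and at 41.4 to 55.1 CPM in treated ones. The likeness rests on the untreated day 3 library, since 0 of these 8 were among the most alike genes without it. Of the other 8 members, CXCL2 was nearest to that profile (r = 0.873) and IL1B farthest from it (r = 0.110), over the same 7 libraries.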

How the data were processed

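Single-library RNA sequencing of PC-3 spheroids was analysed for 7 of 10 samples, mapped to conditions by the identifiers in the sample titles. Per the study's methods, the authors made TruSeq v2 libraries (a kit that does not mark strand), read them as 150 bp pairs, mapped them to hg38 with STAR and used Partek Flow, DESeq2 and edgeR. The counter and annotation are not given in the sources used here. The authors deposited counts per 1000000 reads (CPM), with an offset of 0.0001 CPM that was subtracted. Depth came from the steps between low values, of which 88.6% to 90.6% lay on whole reads (within 0.02 of a read), so no count test was run. It was 15.0 M to 22.5 M reads (M, 1000000).

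The study's methods text speaks of an exposure of weeks, and the labels give days, which were used. limma 3.58.1 (R 4.3.3) was run on log2(TMM-scaled CPM + 1) for genes with at least 10 reads at the median depth (0.528 CPM) in 2 libraries, with a trend, a threshold of 0.05 after Benjamini-Hochberg adjustment and TMM factors computed in Python 3.11.15. In simulated libraries it recovered 94.5% to 100% of 200 genes changed 4-fold, with 2 to 16 false calls. The changed genes had at least 5 CPM, and the noise (SD 0.1 to 0.4 on the log2 scale) held no day effect and no counting error. The called members differed by less than 4-fold, so these rates do not carry over to them. Single-library ratios have exact 95% intervals (scipy 1.17.1), and counts of genes at least 2-fold apart took genes with a mean of at least 10 CPM. Genes, motifs and 3′ UTRs came from GENCODE 44 and RefSeq, and the end coordinates printed are 1 base below the deposited stop, as in RefSeq. The alternatives were other scalings, pseudocounts of 0.1 and 5 CPM, no filter, 6 libraries, and leaving out a day or a regimen. The members and gene lists were chosen with earlier results of these data known. Named genes were the 10 members, list genes that reach 1 CPM, given as examples beside their list's count, and the 8 genes most like CXCL8 and CXCL1. FCMR, STEAP1B, IL6-AS1, LIF-AS1 and the cell markers were named beside results they touch, and the first 4 of these were chosen after their values were seen. Of the luminal marker list, part is not reported here.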

Additional observations from a re-analysis of the deposited data

Results flagged for a closer look

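The difference between EE and CON had opposite signs on the 2 days for 2 of the 10 genes, with 1 library for each regimen and day, and the change of the difference was not tested. For IL24, EE minus CON was -2.39 on day 3 and 0.49 on day 7 on the log2 scale, so that the difference moved by 2.88 between the days. For LIF it was -0.16 on day 3 and 0.72 on day 7, a move of 0.88.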

How the results depend on the processing

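The labels give no replicate numbers, and the fit compares EE with CON within each day through its term for day. Between EE and CON, 64 genes were called, against 104 with a pseudocount of 0.1 CPM, 102 with 5 CPM and 0 with 6 libraries, and the SE then includes how the untreated libraries changed between days. Of 60 values of the 10 genes under the other settings, 56 kept their direction and side of the threshold and 4 lost the call, IL6, CXCL8 and CXCL5 with 6 libraries and CXCL5 with median-of-ratios scaling. Leaving out a day, IL24 ranged from -2.39 to 0.49 and LIF from -0.16 to 0.72. Between days 7 and 3 in treated spheroids, 8009 genes were called, against 0 with 6 libraries. Reversed values were those of CXCL1 (-0.078 on library totals, -0.20 with 6 libraries), IL24 (-0.020 on library totals, -1.35 with 6 libraries) and IL6 (-0.76 with 6 libraries). Leaving out a regimen, IL24 ranged from -1.22 to 1.66, CXCL3 from -0.67 to 0.17 and IL1A from -0.21 to 0.011. None of these 5 genes was called between the days. The ratio of CXCL1 in CON day 7 over CON day 3 was 0.901, and 1.10 with TMM and 1.12 with median-of-ratios scaling. With a mean of at least 5 CPM, genes at least 2-fold apart numbered 227 in place of 130 for CTRL day 7 over day 0, 117 in place of 70 for CON over CTRL on day 3, and 62 in place of 34 and 92 in place of 37 for EE over CON on days 3 and 7. In EE over untreated on day 7, 4 of 9 members tested were then at least 2-fold apart (CXCL3, CXCL5, IL6 and IL24), in place of 1 of 5. Of all genes, 2456 of 11306 were that far apart, in place of 2051 of 9909, and nothing is read from the count. Without the untreated day 3 library, 0 of the 8 genes most like CXCL8 and CXCL1 were the same. The causes were not tested. For genes at a few CPM, such as IL1A, depth limits what could be detected.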
